A study of Mus musculus with 16 samples.

Results

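The neurotrophins and their receptors were examined as a set of 6 genes taken by symbol, of which 5 had a probeset among the 19937 genes measured: the ligand gene *Bdnf*, the Trk receptor genes *Ntrk2* (TrkB) and *Ntrk3* (TrkC), *Ngfr*, which encodes p75NTR, and *Sort1*, which encodes sortilin. The sixth, *Ntf3* (neurotrophin-3), has no entry in the platform table given and was not analysed here. The study misexpressed the miR-183 cluster in the mouse inner ear and measured RNA on 16 MoGene 1.0 arrays, 1 per sample. The P5-OC groups were 5 Tg/Tg and 5 WT samples of microdissected organ of Corti at postnatal day 5, and the P18-cochlea groups were 3 Tg/Tg and 3 WT samples of cochlea at postnatal day 18, all on the FVB/NCrl background. Tg/Tg mice were homozygous for the Tg1MDW transgene, in which a human GFAP promoter was used to direct *Mir183*, *Mir96* and *Mir182* to supporting cells. In the study's staining for miR-182, signal beyond the hair cells was described at P18, in supporting cells, Schwann cells and the spiral limbus, and no clear difference from WT was seen at P5. WT mice carried no transgene. All Tg/Tg samples came from a single founder line, so effects of the transgene and of its integration site cannot be told apart, and between the ages tissue and age changed together.

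Neurotrophins are secreted as proneurotrophins, which bind p75NTR together with sortilin, and are cleaved to mature ligands that bind Trk receptor kinases. BDNF binds TrkB and neurotrophin-3 binds TrkC. In the inner ear, hair cells and supporting cells supply these ligands, and spiral ganglion neurons that carry TrkB and TrkC depend on them for survival and for the pattern of their innervation, while p75NTR is also found on glia and supporting cells.

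The mature miRNAs that the transgene was built to express are shown because they are what the transgene adds in Tg/Tg samples. They were taken from RefSeq on GRCm38.p6, and capitals mark the seed, bases 2 to 8 counted from the 5′ end.
mmu-miR-96-5p: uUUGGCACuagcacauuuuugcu
mmu-miR-182-5p: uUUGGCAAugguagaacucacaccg
mmu-miR-183-5p: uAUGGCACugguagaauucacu
Their endogenous copies lie on the minus strand at chr6:30169506-30169528 (miR-96), chr6:30165962-30165986 (miR-182) and chr6:30169711-30169732 (miR-183). None of them shares a whole seed with another. The seeds of miR-96 and miR-182 have 6 of 7 bases in common, those of miR-96 and miR-183 also 6 of 7, and those of miR-182 and miR-183 5 of 7. Sites for these seeds in the messenger RNAs of the receptor genes were not searched here.

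Signals are given as the deposited normalized log2 values, in which 1 unit is a 2-fold step. Array medians lay between 6.33 and 6.63. The mean of the transgene elements was 7.64 to 8.48 in Tg/Tg and 4.43 to 4.96 in WT at P5, and 7.65 to 7.77 in Tg/Tg and 4.24 to 4.42 in WT at P18, so it separated the genotypes at each age. Samples were grouped by name, because the other label fields contradict those names for tissue, genotype and age. At P5 the mean of 3 Y-linked genes lay between 3.90 and 4.06 on 4 of 5 Tg/Tg arrays and on 1 of 5 WT arrays (3.95), and between 8.61 and 8.96 on the others, so Y-linked signal was not balanced between the genotypes. At P5 in limma, 0 of 5 neurotrophin genes were called with that mean as a covariate, as without it. The covariate largely followed genotype at P5, and calls over all probesets went from 212 to 76 with it. At P5 that fit tells Y-linked signal from genotype mainly through Tg/Tg replicate 1 (8.86) and WT replicate 1 (3.95), so it cannot decide between them. At P18 the Y-linked mean was 7.65 to 7.66 in Tg/Tg and 7.22 to 7.34 in WT. In these bulk samples, fewer cells of a type and less RNA per cell cannot be told apart.

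None of the 5 neurotrophin genes was called between the genotypes at either age. *Ntrk3* was lower in the P18-cochlea than in the P5-OC of WT mice, and it was the only member called in that comparison. The values of each gene on each array follow, by role.

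**Figure D1:**
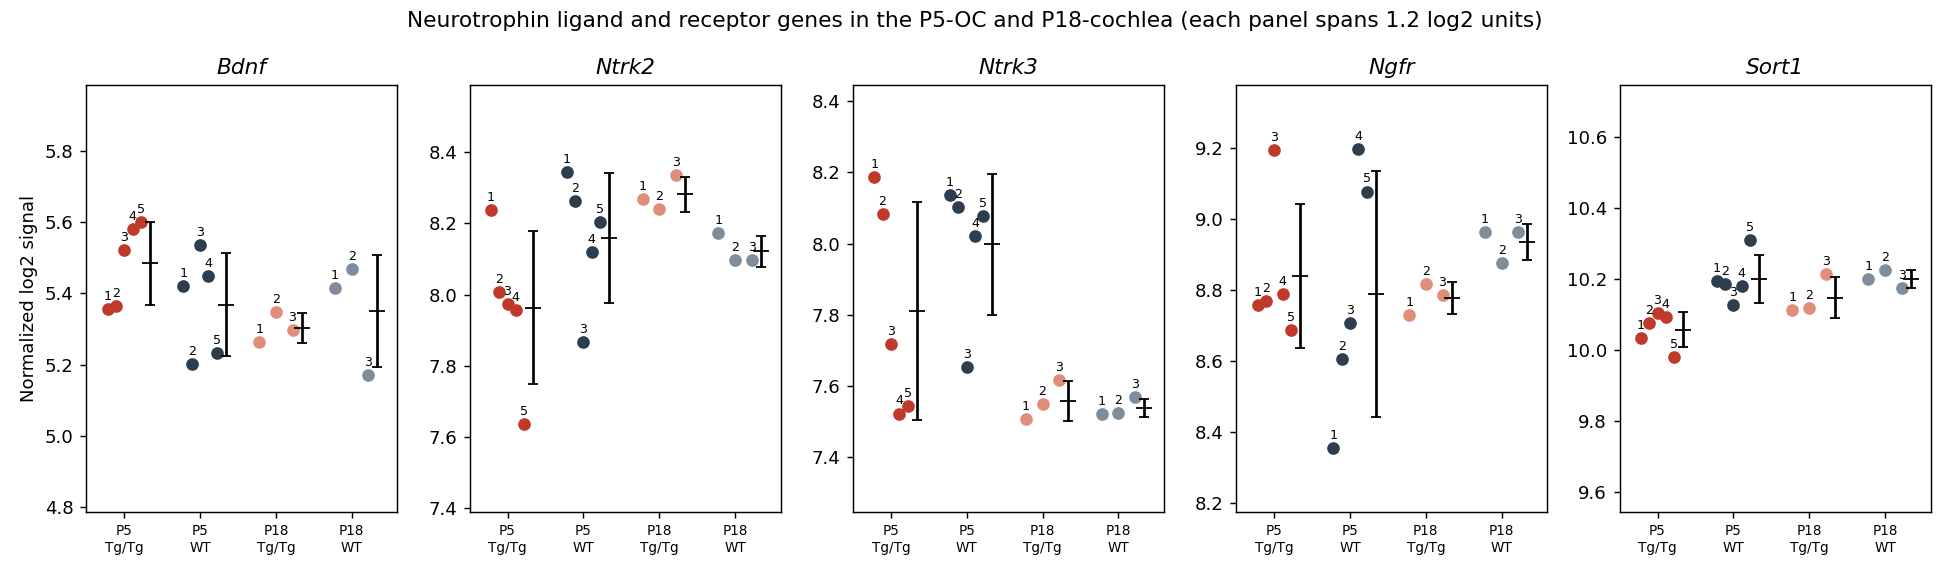
Normalized log2 signal (vertical axis) of *Bdnf*, *Ntrk2*, *Ntrk3*, *Ngfr* and *Sort1* on each of the 16 arrays, with a point per array numbered by replicate and bars for the mean ± SD of each group; each panel spans the same number of log2 units around its own level. *Ntrk3* lies at 7.51 to 7.62 on the P18 arrays of both genotypes, while *Sort1* varies little in any group.

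*Bdnf*, the only ligand gene of the set with a value, had a low signal, below the median of all probesets on all 16 arrays. It read 5.36, 5.37, 5.52, 5.58 and 5.60 in P5 Tg/Tg samples and 5.42, 5.20, 5.54, 5.45 and 5.23 in P5 WT samples. It read 5.26, 5.35 and 5.30 in P18 Tg/Tg samples and 5.41, 5.47 and 5.17 in P18 WT samples. The genotypes overlapped at both ages. Means were 5.49 ± 0.12 in Tg/Tg and 5.37 ± 0.14 in WT at P5 (SD, n = 5 each), and 5.30 ± 0.042 in Tg/Tg and 5.35 ± 0.16 in WT at P18 (SD, n = 3 each). The single *Bdnf* probeset is listed with 11 RefSeq transcripts, so the alternative first exons of the gene were not separated.

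The promoter of *Bdnf* is known for a CRE element bound by CREB in response to neuronal activity, and its core, TGACG on either strand, was looked for from 250 bases before to 50 bases after each start site. Of 7 *Bdnf* windows in RefSeq, 1 held it (14.3%), as did 20.8% of all 32851 windows, so the motif was no more frequent in the *Bdnf* windows than in promoters at large. The windows of *Ntrk2* and *Ngfr* held none, and no window is listed for *Ntrk3* or *Sort1*. The *Bdnf* match is shown on the plus strand of GRCm38.p6 at chr2:109692389-109692417, with capitals for the bases that read TGACG on the opposite strand.
Bdnf: tatgacagctcaCGTCAaggcagcgtgga

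*Ntrk2* encodes TrkB, the BDNF receptor. Its signal was 8.24, 8.01, 7.97, 7.96 and 7.64 in P5 Tg/Tg samples and 8.34, 8.26, 7.87, 8.12 and 8.20 in P5 WT samples. It was 8.27, 8.24 and 8.34 in P18 Tg/Tg samples and 8.17, 8.10 and 8.10 in P18 WT samples. At P5 the genotypes overlapped, with replicate 5 of Tg/Tg the lowest of all 16 arrays, and at P18 each Tg/Tg sample was above each WT sample. Means were 7.96 ± 0.22 in Tg/Tg and 8.16 ± 0.18 in WT at P5, and 8.28 ± 0.049 in Tg/Tg and 8.12 ± 0.043 in WT at P18.

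*Ntrk3* encodes TrkC, the receptor of neurotrophin-3. Its signal was 8.19, 8.08, 7.72, 7.52 and 7.54 in P5 Tg/Tg samples and 8.14, 8.10, 7.65, 8.02 and 8.08 in P5 WT samples. In the P18-cochlea it was 7.51, 7.55 and 7.62 in Tg/Tg samples and 7.52, 7.52 and 7.57 in WT samples. The P5 Tg/Tg samples fell into a pair above 8 and the other 3 below it, whereas only replicate 3 of P5 WT lay below 8. Means were 7.81 ± 0.31 in Tg/Tg and 8.0 ± 0.20 in WT at P5, and 7.56 ± 0.056 in Tg/Tg and 7.54 ± 0.026 in WT at P18. Each Trk gene has 1 probeset, so transcripts for the full-length kinases and for the truncated receptors were not separated.

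*Ngfr* encodes p75NTR, the receptor shared by all neurotrophins. Its signal was 8.76, 8.77, 9.19, 8.79 and 8.69 in P5 Tg/Tg samples and 8.36, 8.61, 8.71, 9.20 and 9.08 in P5 WT samples. It was 8.73, 8.82 and 8.79 in P18 Tg/Tg samples and 8.96, 8.88 and 8.96 in P18 WT samples. The P5 WT samples spanned the widest range of any member in a group and enclosed all P5 Tg/Tg samples, while at P18 each Tg/Tg sample was below each WT sample. Means were 8.84 ± 0.20 in Tg/Tg and 8.79 ± 0.34 in WT at P5, and 8.78 ± 0.045 in Tg/Tg and 8.93 ± 0.051 in WT at P18.

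*Sort1* encodes sortilin, the co-receptor of p75NTR for proneurotrophins and a sorting receptor of the secretory pathway. Its signal was 10.03, 10.07, 10.11, 10.09 and 9.98 in P5 Tg/Tg samples and 10.20, 10.19, 10.13, 10.18 and 10.31 in P5 WT samples. It was 10.11, 10.12 and 10.21 in P18 Tg/Tg samples and 10.20, 10.22 and 10.18 in P18 WT samples. At P5 the genotypes did not overlap, with each Tg/Tg sample below each WT sample, and at P18 they overlapped. Means were 10.06 ± 0.050 in Tg/Tg and 10.20 ± 0.066 in WT at P5, and 10.15 ± 0.057 in Tg/Tg and 10.20 ± 0.025 in WT at P18.

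The SD of the 4 group means was 0.08 for *Bdnf*, 0.13 for *Ntrk2*, 0.22 for *Ntrk3*, 0.07 for *Ngfr* and 0.07 for *Sort1*, against a median of 0.18 over all genes. By this measure *Ntrk3* was the most variable member, and 42.4% of genes had a larger value. Within groups, the SD was 0.05 for *Sort1*, lower than in 99.4% of genes, and 0.23 for *Ngfr*, with a larger value in 8.7% of genes. *Ngfr* thus varied mostly between replicates, chiefly at P5, and *Sort1* was among the steadiest genes on these arrays.

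The first comparison asked whether the transgene altered these genes in the P5-OC. At an adjusted p under 0.05 (limma, adjusted over all probesets), 0 of 5 members were called, while 0.61% of all probesets were. *Sort1* was 0.14 lower in Tg/Tg on the log2 scale, a fold of 0.906 (standard error 0.05, 95% interval -0.26 to -0.03), and was lower in 5 of 5 samples than any WT sample. Its adjusted p was 0.24 in limma and its unadjusted p 0.019, the only one under 0.05 among the members, and 16.4% of all probesets had one. Groups failed to overlap for 1.67% of all probesets. The difference was 0.12 for *Bdnf* (95% interval -0.06 to 0.30), -0.20 for *Ntrk2* (-0.42 to 0.02), -0.19 for *Ntrk3* (-0.46 to 0.08) and 0.05 for *Ngfr* (-0.24 to 0.35), with adjusted p of 0.35 to 0.87 in limma. No interval reached beyond a 1.37-fold change. The median difference was -0.14 over the members and -0.03 over all genes.

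**Figure D2:**
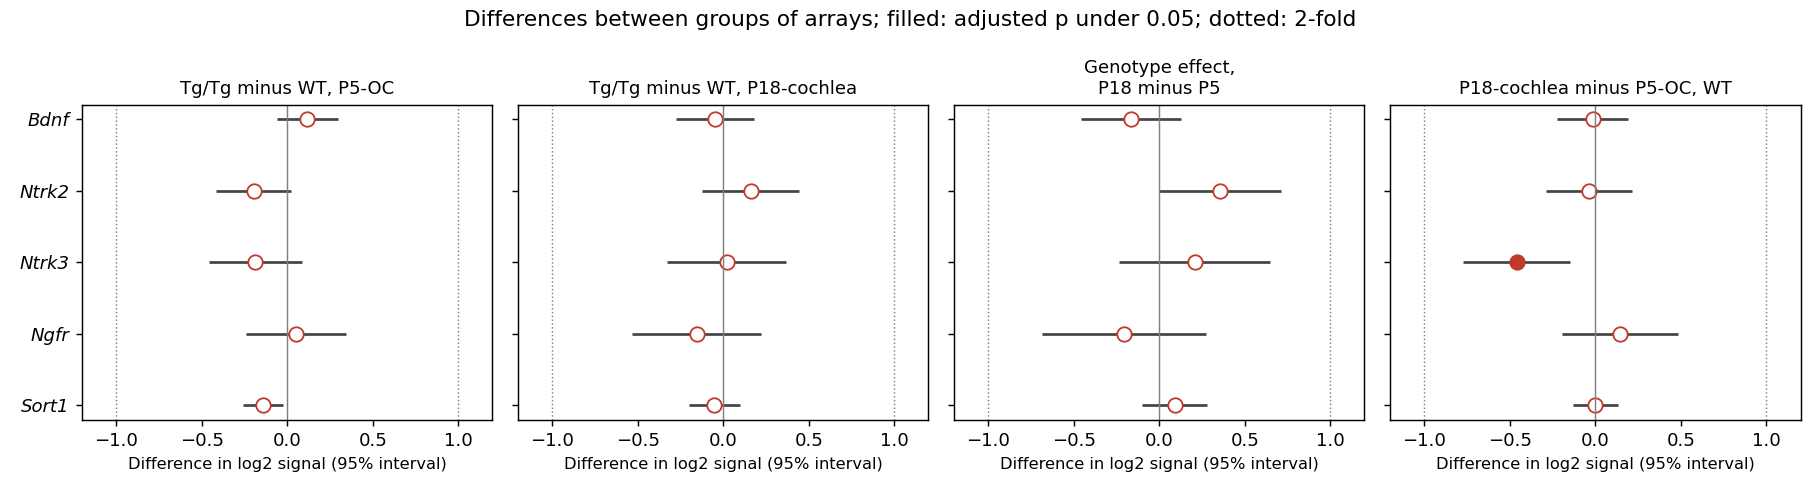
Differences in normalized log2 signal with 95% intervals (horizontal axis) for the 5 members, for Tg/Tg minus WT in the P5-OC and in the P18-cochlea, the difference between these effects, and P18-cochlea minus P5-OC in WT; filled points mark an adjusted p under 0.05 and dotted lines a 2-fold change. *Ntrk3* in the WT age comparison is the one filled point, at -0.46, and no interval reaches a dotted line.

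The P5 differences are also given by sets of replicates, since replicates 1 and 2 stood apart in both genotypes. The mean of 13 measured markers of cochlear mesenchyme and bone was 10.61 and 10.73 in Tg/Tg and 10.67 and 10.56 in WT on replicates 1 and 2, and 9.88 to 10.003 in Tg/Tg and 9.89 to 9.95 in WT on replicates 3 to 5. Over replicates 1 and 2, *Ntrk3* averaged 8.13 in Tg/Tg and 8.12 in WT, a difference of 0.02. Over replicates 3 to 5, it averaged 7.59 in Tg/Tg and 7.92 in WT, a difference of -0.32. *Ngfr* had a difference of 0.28 over replicates 1 and 2 and of -0.10 over replicates 3 to 5. The differences in these sets were -0.18 and -0.21 for *Ntrk2*, and -0.14 and -0.15 for *Sort1*. The neuron marker mean differed by -0.03 over replicates 1 and 2 and by -0.41 over replicates 3 to 5. In the same sets the mean of Schwann cell and satellite glia markers differed by -0.40 and -0.62, and that of hair cell markers by -0.02 and -0.06. The Y-linked mean differed by -0.06 over replicates 1 and 2 and by -4.71 over replicates 3 to 5. In the second set it was lower on every Tg/Tg array than on any WT array, so it followed genotype there. The part of Y-linked signal in the differences of that set was not tested. The labels do not name the sets as batches, they were chosen with these data in view, and neither a difference between the sets nor the part of other tissue in it was tested.

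Markers of cells that carry the receptors were set beside these values. The mean over 19 measured of 20 neuron markers was 8.33, 8.05, 8.28, 8.05 and 7.85 in Tg/Tg samples and 8.26, 8.18, 8.15, 8.61 and 8.67 in WT samples. None of the 19 was called in limma, and 8 had an unadjusted p under 0.05, beside 16.4% of all probesets. The median difference was -0.34. The 16 measured of 19 Schwann cell and satellite glia markers averaged 8.95 to 9.15 in Tg/Tg samples and 9.50 to 9.68 in WT samples. Of these, 6 were called lower in Tg/Tg, among them the myelin genes *Mbp* (-1.03), *Mag* (-2.23) and *Pmp22* (-0.96), and the rest were not called. Over all probesets 0.549% were called lower at P5. The glial list's median difference was -0.26, a smaller drop than in the myelin genes named, so the glial mean is weighted by strongly lowered genes. Hair cell markers gave no call among 14 and averaged 7.77 to 8.01 in Tg/Tg and 7.73 to 8.02 in WT. The part of neuron or glial content in the receptor values was not tested.

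**Figure D3:**
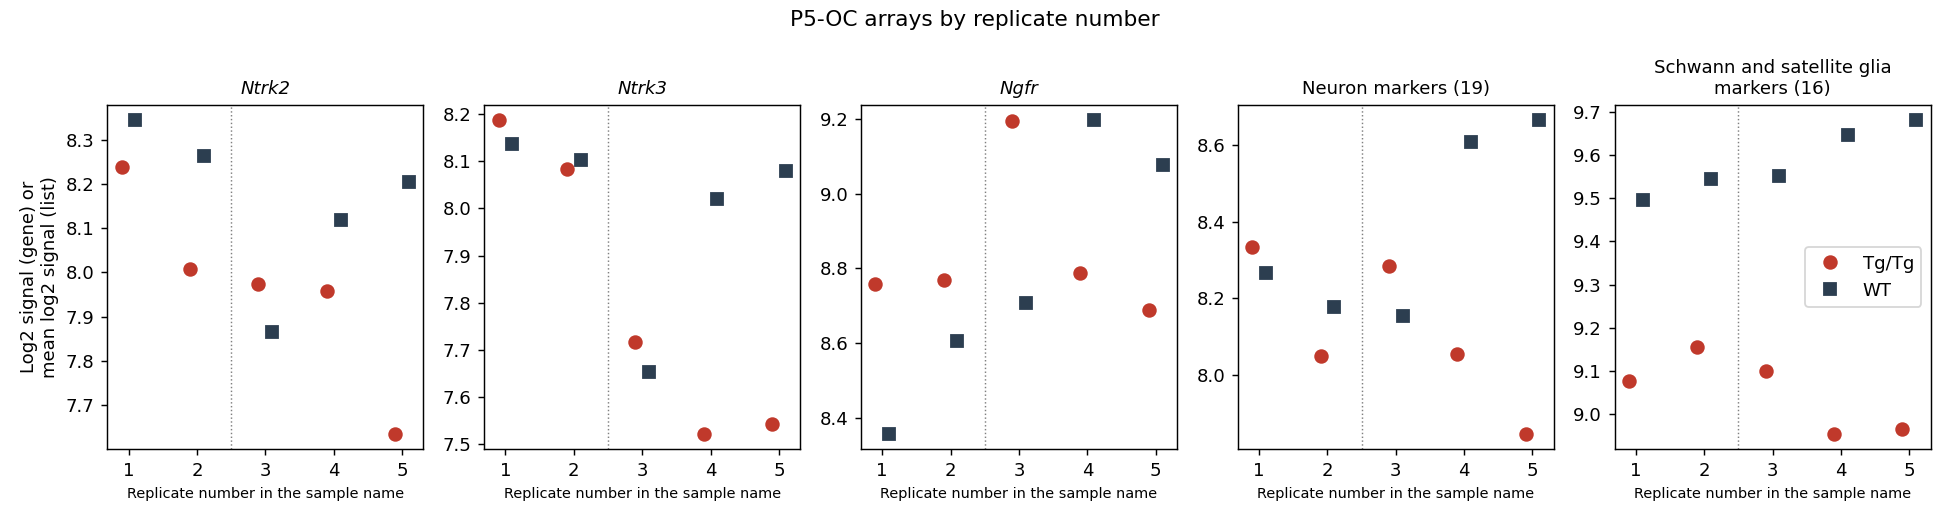
Normalized log2 signal of *Ntrk2*, *Ntrk3* and *Ngfr*, and the mean log2 signal of 19 neuron markers and of 16 Schwann cell and satellite glia markers, on each P5-OC array by replicate number in the sample name, for Tg/Tg (circles) and WT (squares), each panel with its own vertical scale; the dotted line stands between replicates 2 and 3. The glial mean separates the genotypes on every array, at 8.95 to 9.15 in Tg/Tg and 9.50 to 9.68 in WT, while the receptor genes overlap.

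In the P18-cochlea 0 of 5 members were called in limma, beside 0.443% of all probesets, and 0 of 5 had an unadjusted p under 0.05, beside 8.77%. *Ntrk2* was 0.16 higher in Tg/Tg (standard error 0.13, 95% interval -0.12 to 0.44, adjusted p = 0.84 in limma), and *Ngfr* was 0.16 lower, at -0.16 (standard error 0.18, interval -0.53 to 0.22, adjusted p = 0.90). The genotypes did not overlap for either gene, but with 3 samples each 27.6% of all probesets showed no overlap. The standard errors rest on a spread shared by both ages, so the P18 intervals also carry the P5 spread. For *Ntrk2* the SD in Tg/Tg and WT was 0.22 and 0.18 at P5 but 0.049 and 0.043 at P18. For *Ngfr* it was 0.20 and 0.34 at P5 but 0.045 and 0.051 at P18. The Y-linked mean at P18, 7.65 to 7.66 in Tg/Tg and 7.22 to 7.34 in WT, lay between the low and high levels of the P5 arrays. The labels do not say whether samples were pools, so the small P18 SD may not measure the spread between animals. Over all alternative fits, P18 fitted alone among them, the lowest adjusted p in limma was 0.18 for *Ntrk2* and 0.19 for *Ngfr*. The differences of *Bdnf* (-0.05), *Ntrk3* (0.02) and *Sort1* (-0.05) had adjusted p of 0.92 to 0.99. No interval went past a 1.45-fold change, and the median difference was -0.05 over the members and -0.02 over all genes.

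Markers of tissue around the cochlea differed between the P18 groups, where 0.443% of all probesets were called. All 14 skeletal muscle markers were measured and 12 were higher in Tg/Tg, with a mean of 8.22 to 8.28 in Tg/Tg and 6.34 to 6.37 in WT. Of 15 cerebellar and hindbrain neuron markers, all measured, 8 were lower in Tg/Tg, with a mean of 6.37 to 6.38 in Tg/Tg and 6.99 to 7.03 in WT. The neuron list as a whole was 8.70 to 8.72 in Tg/Tg and 8.76 to 8.80 in WT, and the Schwann cell list 9.55 to 9.61 in Tg/Tg and 9.39 to 9.43 in WT. The part of these tissues in the P18 values of *Ntrk2* and *Ngfr* was not tested.

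The effect of genotype was not shown to differ between P18 and P5 for any member, with 0 of 5 called in limma beside 0.596% of all probesets, and 0 of 5 at an unadjusted p under 0.05 beside 14.3%. *Ntrk2* had the largest difference of effects, 0.36 (standard error 0.17, 95% interval -0.002 to 0.71, unadjusted p = 0.051, adjusted p = 0.35 in limma). The other members were at -0.17 for *Bdnf*, 0.21 for *Ntrk3*, -0.21 for *Ngfr* and 0.09 for *Sort1*, with adjusted p of 0.6 to 0.7. The widest interval allowed a 1.64-fold difference between the effects.

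Between the ages in WT, *Ntrk3* fell by 0.46 on the log2 scale in the P18-cochlea relative to the P5-OC, a fold of 0.727 (standard error 0.15, 95% interval -0.77 to -0.15, adjusted p = 0.016 in limma). All 3 P18 WT samples were below all 5 P5 WT samples, as groups were apart for 49.2% of all probesets. In Tg/Tg the ages overlapped, at 7.52 to 8.19 in P5 samples and 7.51 to 7.62 in P18 samples. *Ntrk3* was the 1 member of 5 called, and the only one with an unadjusted p under 0.05 (55.1% of all probesets). Of all probesets 50% were called in this comparison, 30.2% lower and 19.8% higher, so a call was common here. With each array left out in turn, the *Ntrk3* difference stayed between -0.55 and -0.43, with adjusted p of 0.0042 to 0.048.

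The other members had small differences between the ages in WT: -0.02 for *Bdnf* (95% interval -0.22 to 0.19), -0.04 for *Ntrk2* (-0.29 to 0.22), 0.15 for *Ngfr* (-0.19 to 0.48) and 0.00 for *Sort1* (-0.13 to 0.13). Their adjusted p was 0.48 to 1. The median size of the difference, sign aside, was 0.04 over the 5 members and 0.27 over all genes. *Bdnf* depended on the scaling: with quantile normalization repeated it was 0.27 higher at P18 (adjusted p = 0.026), while the median of all genes was 0.15 with that scaling and -0.01 without it, and the share of called probesets that were higher was 56% with it and 39.6% without it. The call of *Ntrk3* was kept there, at -0.41 with an adjusted p of 0.03.

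Marker lists of most cell types differed between the P18-cochlea and the P5-OC, where 19.8% of all probesets were called higher and 30.2% lower. In WT, 12 of 16 markers of supporting cells and the sensory epithelium were lower in the P18-cochlea and 2 higher, and 10 of 14 hair cell markers were lower and 2 higher. Neuron markers went the other way, with 11 of 19 higher and 5 lower, among them *Nefm* (1.42) and *Thy1* (1.99) higher and *Isl1* (-1.84) lower. Of the markers of cochlear mesenchyme and bone 8 of 13 were higher and 3 lower (median 1.44), of vessels and blood 9 of 11 higher and 1 lower (1.05), of oligodendrocytes 9 of 11 higher and 0 lower (1.10), and of Schwann cells and satellite glia 4 of 16 higher and 8 lower (-0.35). *Ntrk3* was therefore lower at P18 while most neuron markers were higher. The part of the change of tissue in the *Ntrk3* value was not tested.

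The rest of the pathway was followed in lists of genes around the receptors. The list counts are to be read beside the shares over all probesets. By genotype, 0.61% were called at P5 and 0.443% at P18, and 16.4% and 8.77% had an unadjusted p under 0.05. Between the ages in WT, 19.8% were called higher and 30.2% lower. Of 8 symbols listed for other ligands and receptors, 5 were measured. Of these, 0 were called by genotype at either age in limma, with 1 at an unadjusted p under 0.05 at P5 and 0 at P18. Between the ages in WT the sortilin relatives *Sorcs1* (-1.34, adjusted p = 3.6e-07 in limma), *Sorcs3* (-1.43, 2.5e-06) and *Sorcs2* (-1.17, 3.9e-06) fell in the P18-cochlea, and *Sorl1*, another sorting receptor of that family, rose by 0.67 (adjusted p = 0.00031). *Sort1* itself differed by 0.00. For *Sorcs1* the mean was 7.44 ± 0.028 in P18 WT and 8.79 ± 0.19 in P5 WT. The ligand gene *Ntf5* was at -0.01 with an adjusted p of 0.94.

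Of 20 symbols listed for co-receptors and adaptors of p75NTR, 16 were measured. Of these, 0 were called by genotype in limma (2 at an unadjusted p under 0.05 at P5 and 0 at P18), and the median difference was -0.02 at both ages. Between the ages in WT, 3 rose and 3 fell. *Tnfrsf19* (TROY), a partner of the Nogo receptor in neurons, fell by 0.76 in the P18-cochlea (adjusted p = 2e-07), *Rtn4rl1*, a Nogo receptor homologue, rose by 0.77 (2.9e-06) and *Psen2*, a subunit of gamma-secretase, rose by 0.71 (5.2e-05).

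Of 12 measured of 14 genes for the processing of proneurotrophins, 0 were called by genotype in limma (2 at an unadjusted p under 0.05 at P5 and 0 at P18), with a median of -0.01 at P5 and -0.06 at P18. With age in WT, 3 rose and 2 fell. *Mmp9*, an extracellular protease, rose by 3.18 in the P18-cochlea (adjusted p = 1.6e-07), with 10.35 ± 0.031 in P18 WT and 7.17 ± 0.47 in P5 WT. Markers of vessels and blood averaged 9.48 to 9.55 in P18 WT and 7.30 to 7.60 in P5 WT, and those of mesenchyme and bone 11.12 to 11.15 in P18 WT and 9.89 to 10.67 in P5 WT, and their part in the *Mmp9* value was not tested. *Plat*, tissue plasminogen activator, fell by 1.10 (3.1e-06) and the convertase gene *Pcsk5* fell by 0.77 (6.6e-06).

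Trk adaptors and signalling genes, 47 measured of 57, gave 0 calls by genotype at P18 in limma (8 at an unadjusted p under 0.05). At P5 they gave 2, both lower in Tg/Tg, where 0.549% of all probesets were called lower. There 8 of the 47 had an unadjusted p under 0.05, beside 16.4% of all probesets. *Shc4*, an adaptor of the Shc family, was 8.51, 8.57, 8.75, 8.46 and 8.42 in P5 Tg/Tg samples and 9.01, 9.55, 9.14, 9.28 and 9.33 in P5 WT samples, so the genotypes did not overlap. It fell by 0.72 (standard error 0.09, adjusted p = 0.00074 in limma). At P18 it was 8.41 ± 0.011 in Tg/Tg and 8.43 ± 0.12 in WT, and its effects at the 2 ages differed by 0.69 with an adjusted p of 0.055. *Camk2b*, a neuronal kinase subunit, fell by 0.35 at P5 (standard error 0.08, adjusted p = 0.049), but lost its call in 14 of 16 fits with an array left out. The list's median at P5 was -0.08, beside -0.03 over all genes. At P18 relative to P5 in WT, 9 rose and 18 fell, led by *Plcg2* (2.20, adjusted p = 7.8e-11), *Nedd4l* (-1.17, 2e-09) and *Nras* (-0.86, 2.4e-07).

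Of 20 BDNF-responsive genes, all measured, 3 were lower in Tg/Tg at P5 and none higher, where 0.549% of all probesets were called lower. An unadjusted p under 0.05 in limma was found for 6 of the 20 at P5, beside 16.4% of all probesets. At P18 0 were called, and 2 had an unadjusted p under 0.05, beside 8.77% of all probesets. *Egr2* read 7.63, 7.998, 7.75, 7.20 and 7.26 in P5 Tg/Tg samples and 9.002, 9.31, 9.15, 9.09 and 9.24 in P5 WT samples. *Dusp4* read 6.38, 6.20, 6.07, 5.97 and 5.48 in P5 Tg/Tg samples and 7.02, 7.38, 7.35, 7.37 and 7.58 in P5 WT samples. For both, each Tg/Tg sample was below each WT sample. *Egr2* fell by 1.59 (standard error 0.13, adjusted p = 4.3e-06 in limma) and *Dusp4* by 1.32 (standard error 0.14, adjusted p = 7.6e-05). At P18 *Egr2* was 8.31 ± 0.036 in Tg/Tg and 8.35 ± 0.093 in WT, and *Dusp4* was 7.02 ± 0.085 in Tg/Tg and 6.92 ± 0.090 in WT.

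The effects at P18 minus P5 differed for both genes, by 1.55 for *Egr2* (adjusted p = 9e-04) and 1.42 for *Dusp4* (adjusted p = 0.0051). With replicate numbers as a block the adjusted p of *Dusp4* was 0.081. *Egr2* encodes the master regulator of myelination in Schwann cells and is also one of the 6 Schwann cell markers that were lower at P5, and *Dusp4* encodes a phosphatase of MAP kinases. The remaining gene, the immediate early gene *Fos*, fell by 0.31 at P5 (standard error 0.07, adjusted p = 0.047) and lost its call in 14 of 16 fits with an array left out. The list's median at P5 was -0.07. The part of the glial marker level in these values was not tested. Between the ages in WT, 6 of the list rose and 5 fell, led by *Dusp1* (2.27, adjusted p = 6.5e-10), *Npy* (-3.37, 1e-07) and *Junb* (0.88, 1.5e-06).

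**Figure D4:**
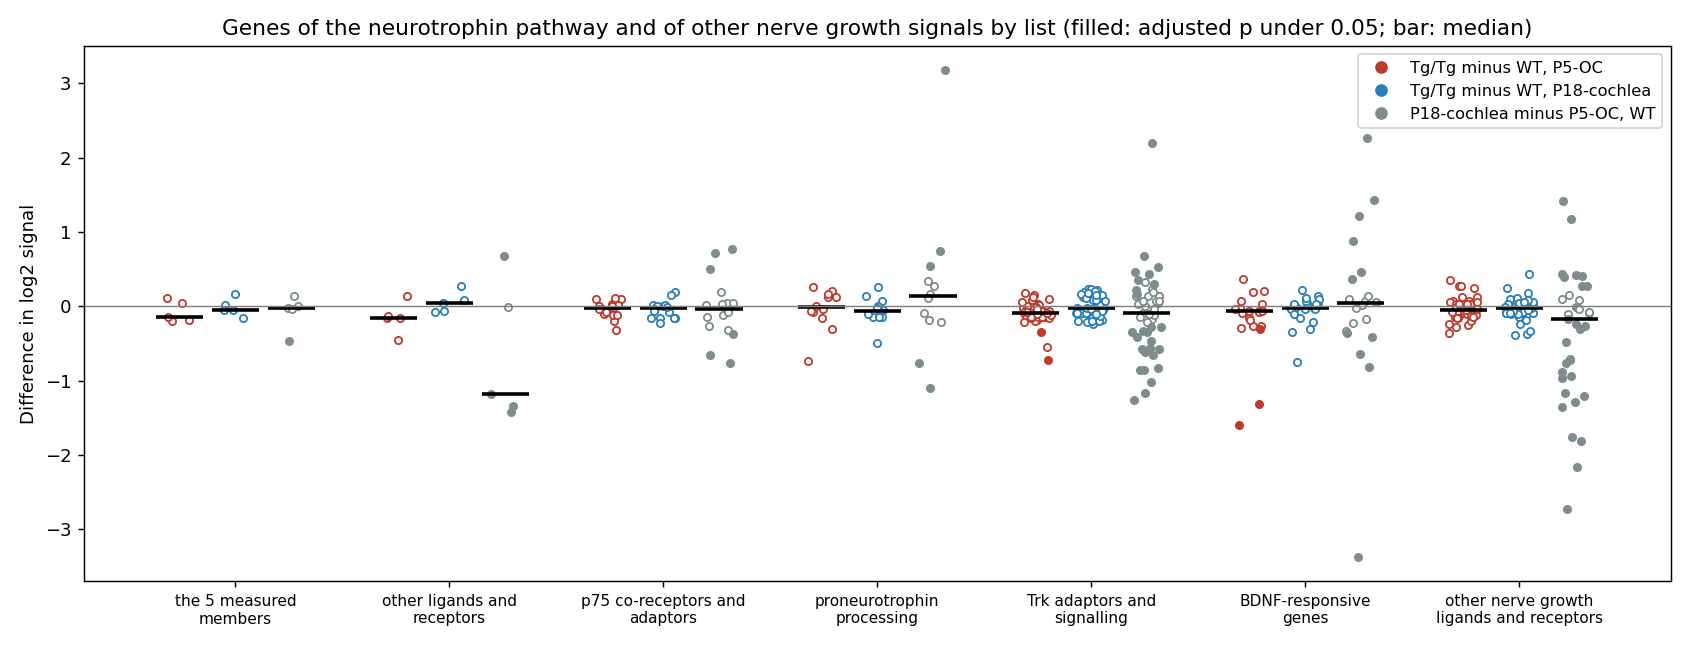
Difference in normalized log2 signal (vertical axis) of every measured gene of the 5 members and of 6 lists around them, for Tg/Tg minus WT in the P5-OC, Tg/Tg minus WT in the P18-cochlea and P18-cochlea minus P5-OC in WT; a point is a gene, filled at an adjusted p under 0.05, and a bar is the list's median. Filled points by genotype occur at P5 alone, all below 0, with *Egr2* lowest at -1.59, whereas filled points between the ages occur in every list.

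Other ligands and receptors of nerve growth, such as ephrin, semaphorin and Robo receptors, were set beside the neurotrophins. Of 37 measured of 39, 0 were called by genotype in limma (7 at an unadjusted p under 0.05 at P5 and 5 at P18), with a median of -0.05 at P5 and -0.02 at P18. In WT, 8 rose and 19 fell in the P18-cochlea. The ephrin receptor gene *Epha7* fell by 2.16 (adjusted p = 6.8e-11 in limma), with 8.81 ± 0.0087 in P18 WT and 10.97 ± 0.15 in P5 WT, the Slit receptor gene *Robo2* fell by 2.72 (8.8e-09) and the chemokine receptor gene *Cxcr4* rose by 1.42 (3.1e-09). The list's median in this comparison was -0.17, beside -0.02 over the 5 neurotrophin members and -0.01 over all genes. Among those members *Ntrk3*, at -0.46, was the only one called.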

How the data were processed

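RNA of 16 mouse samples, kept in RNAlater, purified on Qiagen columns and labelled with biotin, was measured on MoGene 1.0 arrays. The log2 signals of 34760 probesets were used as deposited, already normalized by the authors. The submitters' processing notes name limma, and the background correction and normalization are not given in the sources used here. Values lay between 2.09 and 13.72, and the number of arrays limits the precision.

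The platform table pairs 21640 probesets with 1 symbol and 1321 with several, and 11799 are unnamed here. Each gene was represented by its brightest probeset. Means of the 4 groups were fitted with lmFit and eBayes in limma 3.58.1 under R 4.3.3 (12 residual and 3.23 prior degrees of freedom). In each of 4 contrasts, two-sided p-values of all probesets were adjusted by the Benjamini-Hochberg method, and a call is an adjusted p under 0.05. The labels call the samples biological replicates and do not say whether a sample is 1 animal or a pool, so p-values measure the spread between these samples, which may be technical.

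All members are named, and from each list up to 4 called genes per genotype contrast and up to 3 for the WT age contrast, by smallest adjusted p. *Sorl1* and *Ntf5*, and the cell type markers given by name, were chosen after their values were seen. Genes with a similar profile were to be named for members whose group means had an SD of at least 0.3, which no member reached. The members and lists were chosen with earlier results of these data known. The script was tested on simulated data. The fit was repeated with replicate number or P5 replicate set as a block, with each age fitted alone, with filters on dim or unnamed probesets, with quantile normalization repeated, another variance model, array weights or a covariate of Y-linked signal, and without each array in turn. Sequences came from RefSeq tables (GRCm38.p6). Python 3.11.15 and matplotlib 3.10.9 made the plots.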

Additional observations from a re-analysis of the deposited data

Results flagged for a closer look

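In 5 of 56 P5 groups, over 28 genes, a single array stood apart from the other 4 by Dixon's criterion at the 95% level, which chance alone gives in about 1 of 20 groups. Among the members these were *Ntrk3* on P5 WT replicate 3, at 7.65 with the nearest other array at 8.02, and *Ngfr* on P5 Tg/Tg replicate 3, at 9.19 with the nearest at 8.79. On P5 WT replicate 1, *Epha7* was at 10.71 (nearest 11.005), *Mmp9* at 8.01 (nearest 6.99) and *Rtn4rl1* at 7.57 (nearest 7.395).

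The genotype effect differed between the ages, by a test of the difference itself in limma, for *Egr2* (1.55 higher at P18 than at P5) and *Dusp4* (1.42 higher).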

How the results depend on the processing

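The count of called members stayed at 0 for Tg/Tg minus WT at P5, at P18 and for the difference between these effects in every alternative fit and with each array left out. Between the ages in WT the count of 1 became 2 with quantile normalization repeated, where *Bdnf* was 0.27. *Ntrk3* kept its call between the ages in all 8 alternatives and all 16 fits with an array left out. Averaging the probesets of a gene was not run, since each member has 1. Of 166 member values under alternatives, 159 kept direction and side of the threshold and 7 changed sign. With array weights, *Ngfr* was -0.14 at P5, 0.0024 for the difference of effects, and *Sort1* -0.0087 between the ages. With quantile normalization repeated, *Ntrk3* was -0.0011 at P18 and *Sort1* -0.083 between the ages, and with the Y-linked covariate *Sort1* was -0.00084. Of 320 values with an array left out, 13 changed sign. They ranged from -0.056 to 0.15 for *Ngfr* at P5, from -0.14 to 0.0098 for *Bdnf* and -0.011 to 0.045 for *Ntrk3* at P18, and between the ages in WT from -0.075 to 0.073 for *Bdnf*, -0.11 to 0.0090 for *Ntrk2* and -0.018 to 0.028 for *Sort1*. All of these lay on the same side of the threshold as before, except *Bdnf* with repeated normalization. The cause of these changes was not tested.

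Replicate numbers paired the samples at most in part at P5, and not at P18 (3 of 5 P5 pairs and 0 of 3 P18 pairs had a correlation of deviations over 0.1). For P5 replicates 1 and 2 it was 0.29 and 0.36, against at most 0.095 and 0.071 with a WT sample of another number. For P5 replicates 3 and 5 it was -0.11 and -0.22. The replicate block left the counts of called members at 0, 0, 0 and 1. Calls over all probesets varied more. At P5 they were 212, against 139 with the replicate block, 91 with P5 fitted alone, 360 in the brighter part of the probesets, 362 over named probesets, 1715 with array weights, 76 with the Y-linked covariate and 325 with the replicate sets as a block, and they were 2907 without Tg/Tg replicate 3, 594 without WT replicate 1 and 140 without WT replicate 5. At P18 they were 154, against 95 with the replicate block, 475 with P18 fitted alone, 2179 with array weights and 85 to 100 without any one of 5 P18 arrays. For the difference of effects they were 207, against 386 over named probesets, 3234 with array weights, 111 with the covariate and 362 with the replicate sets, and 127 to 584 with an array left out. Between the ages they were 17372, against 11357 in the brighter part and 11250 over named probesets. *Camk2b* and *Fos* each lost their P5 call in 4 alternatives.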
